A study of Mus musculus with 8 samples.

Results

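TALE homeodomain genes include those for DNA-binding partners of Hox proteins, and 9 genes of the class were followed here in mouse embryonic stem (ES) cells before and after retinoic acid (RA). They were chosen by name: Meis1, Meis2, Meis3, Pbx2, Pbx3, Pbx4, Pknox1, Pknox2 and Tgif1. All 9 were on the array, with 12 probes among 55681 probes and 36406 gene names. RNA came from E14Tg2A.4 cells, a single mouse ES cell line, in 4 untreated cultures and 4 cultures exposed to RA for 72 h. The 4 samples of each condition were described as biological replicates. According to the methods, all-trans RA was given at 1 µM in medium without LIF, the cytokine that keeps ES cells undifferentiated. Whether the untreated cells of these arrays had LIF is not given in the sources used here, so RA and a loss of LIF cannot be told apart. The labels name no mutation or transgene.

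Proteins of the TALE class have a homeodomain with an extra loop, which in Pbx proteins contacts Hox proteins. Pbx proteins bind DNA with Hox proteins of the anterior paralogue groups, while Meis and Pknox (also called Prep) proteins bind Pbx and help to hold it in the nucleus. Tgif1 is a repressor of the same class that acts on Smad proteins of the TGF-β pathway and on retinoid X receptors. Trimeric complexes of Hox, Pbx and Meis or Pknox act on enhancers of the developing hindbrain, where RA sets the anterior limits of Hox expression.

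After RA, 6 of the 9 genes rose, 1 fell and 2 did not pass the threshold. Meis1 and Meis2 rose 45.6-fold and 27.9-fold, Pknox2 and Meis3 rose 5.80-fold and 5.31-fold, Pbx2 and Pbx3 rose 2.97-fold and 2.73-fold, and Tgif1 fell to a level 1.84-fold lower. Pbx4 and Pknox1 were the genes that did not pass. A gene passed with an adjusted p under 0.05 and a change above 1.5-fold in limma, a linear model fitted to all probes, and each gene was represented by the probe with its highest mean signal. Of all 36406 gene names, 13.9% were higher, 22.1% were lower and 36.1% passed in either direction by the same rule. Of the 20404 gene names well above background on all 8 arrays, as all 9 TALE genes were, 18.1% were higher and 27.5% lower. The median log2 change was 1.57 over the 9 genes, with a range from -0.88 to 5.51, against -0.24 over those 20404 gene names.

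The label of the cells was checked against marker genes. All 10 markers of pluripotent cells were well above background on all arrays and all 10 fell, with a summed level from 511.6 to 709 in untreated cells and from 46.9 to 125.9 after RA, where 1 is the 75th percentile of an array. All 8 retinoid response genes rose, from a summed level of 7.58 to 12.6 up to 103 to 209. Markers of other cell types moved too. All 8 markers of primitive endoderm rose, from a sum of 8.36 to 22.7 up to 58 to 81.1, and 4 of 7 markers of mesoderm and smooth muscle rose while 1 fell, from a sum of 2.7 to 4.11 up to 256 to 470. Those that rose were Acta2, Tagln and Cnn1, of contractile cells, and Hand1, while Mesp1 fell and T and Tbx6, of early mesoderm, did not pass. A sum is carried by the brightest probes of its list. After RA these were Tagln and Acta2, with mean log2 levels of 7.61 and 6.87, so this sum is not a measure of mesoderm. Of the 6 neural markers measured (Map2 was not), 2 rose and 1 fell, with sums of 5.98 to 9.54 and 10.5 to 11.8. Nes rose, and so did Dcx, from a level not well above background on any untreated array. Tubb3 fell, with a log2 change of -2.22, and Sox1, Pax6 and Neurog2 did not pass. The part of these cell types in the changes of TALE genes was not tested. In RNA from whole cultures, fewer cells of a type and less RNA per cell cannot be told apart.

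The 300 bases from 250 before to 50 after the annotated start are shown for the 3 Meis genes and for 1 start of Tgif1, because the Meis genes rose and Tgif1 fell. The Tgif1 start shown is the one with the most motif matches of its 5, and it does not stand for the others. Each Meis gene had 1 window, so the genes are not compared by their matches. They come from RefSeq on GRCm38.p6, 5′ to 3′ on the strand of the gene, with motif matches in capitals.
Meis1, chr11:19018920-19019219, minus strand: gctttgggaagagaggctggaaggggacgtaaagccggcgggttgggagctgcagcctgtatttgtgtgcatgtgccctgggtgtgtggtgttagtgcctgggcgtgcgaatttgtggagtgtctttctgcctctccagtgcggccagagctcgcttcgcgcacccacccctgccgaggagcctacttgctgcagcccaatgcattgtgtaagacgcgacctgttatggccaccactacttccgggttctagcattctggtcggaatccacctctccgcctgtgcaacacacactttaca
Meis2, chr2:116064570-116064869, minus strand: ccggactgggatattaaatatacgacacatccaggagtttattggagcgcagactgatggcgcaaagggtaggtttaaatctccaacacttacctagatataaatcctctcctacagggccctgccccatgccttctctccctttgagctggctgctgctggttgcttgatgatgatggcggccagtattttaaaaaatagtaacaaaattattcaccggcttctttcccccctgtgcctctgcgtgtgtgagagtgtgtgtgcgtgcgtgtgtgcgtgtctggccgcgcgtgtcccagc
Meis3, chr7:16175145-16175444, plus strand: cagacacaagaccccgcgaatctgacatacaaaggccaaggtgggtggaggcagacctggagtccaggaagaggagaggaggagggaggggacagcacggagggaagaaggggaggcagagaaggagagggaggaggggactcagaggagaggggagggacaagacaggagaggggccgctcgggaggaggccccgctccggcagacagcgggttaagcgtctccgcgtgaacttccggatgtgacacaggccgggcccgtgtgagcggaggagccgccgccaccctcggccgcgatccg
Tgif1, start 4 of 5, chr17:70849741-70850040, minus strand: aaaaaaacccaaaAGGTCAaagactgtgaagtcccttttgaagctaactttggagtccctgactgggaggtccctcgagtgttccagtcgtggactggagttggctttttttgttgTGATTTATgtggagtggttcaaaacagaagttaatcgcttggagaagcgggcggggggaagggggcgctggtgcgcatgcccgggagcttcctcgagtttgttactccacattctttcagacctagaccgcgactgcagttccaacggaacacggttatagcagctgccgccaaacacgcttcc
The motifs searched on both strands were TGACAG (core of Meis, Pknox and Tgif sites), TGATNNAT (core of Pbx and Hox sites), AGGTCA (a site of retinoid receptors) and the direct repeat of AGGTCA with a spacer of 5 bases, which overlaps the search for AGGTCA. RefSeq windows were matched for 6 of the 9 genes, with 10 windows in all. The windows of Meis1, Meis2, Meis3, Pbx2 and Pbx4 held none of the 4 motifs. In the Tgif1 window shown, the AGGTCA match began 237 bases and the TGATNNAT match 134 bases before the start. Of the other Tgif1 windows, start 3 held TGACAG beginning 5 bases after the start and start 5 held it 38 bases after. Starts 1 and 2 of Tgif1 held none of the motifs. Over all 32851 windows, 19.2% held TGACAG, 8.85% TGATNNAT, 16.3% AGGTCA and 0.00913% the repeat. A match is a description of the letters and not a measured binding site. The windows of Meis1, Meis2, Meis3, Pbx2 and Pbx4 held 15, 13, 21, 29 and 19 CpG, all above the median of 7 over all windows. The 5 Tgif1 windows ranged from 2 to 23 CpG.

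Levels are given as log2 intensity relative to the 75th percentile of the same array, so a level of 0 equals that percentile. Levels of different probes are not comparable with each other, and only changes are compared between genes.

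**Figure D1:**
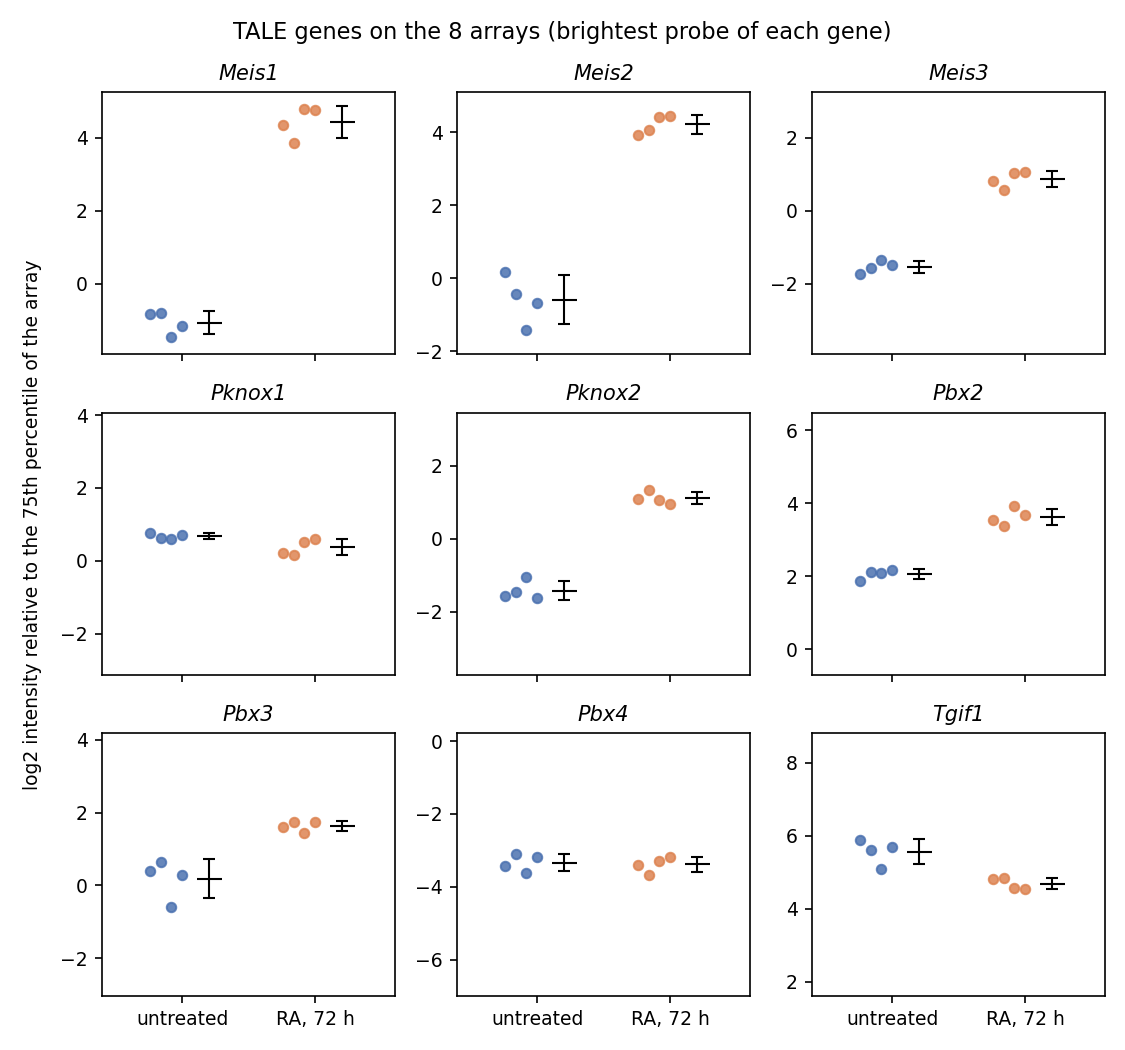
Level of the brightest probe of each of the 9 TALE genes in 4 untreated (blue) and 4 RA-treated (orange) samples, as log2 intensity relative to the 75th percentile of the array. Points run from replicate 1 on the left to replicate 4 on the right, bars are the mean and SD, and all panels span the same number of log2 units. The RA samples lie above all untreated samples in 6 genes, below them in Pknox1 and Tgif1, and overlap them in Pbx4.

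Meis1 binds Pbx and Hox proteins and is needed for blood stem cells and the eye. Its level was -0.85, -0.81, -1.47 and -1.17 in untreated replicates 1 to 4 and 4.36, 3.85, 4.79 and 4.76 in RA replicates 1 to 4. The groups were separated by over 4 log2 units, from the highest untreated to the lowest RA sample. The mean went from -1.07 ± 0.31 to 4.44 ± 0.44 (SD, n = 4 each), a log2 change of 5.51 (SE 0.25, 95% interval 4.94 to 6.08, adjusted p = 2.42e-06 by limma). Within replicate numbers the difference ranged from 4.66 to 6.26. The probe (chr11:18780695-18780754 on mm9, minus strand) matches NM_001193271.

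Meis2 is listed by RefSeq with the older name Stra10, for a gene stimulated by RA. Its level was 0.18, -0.42, -1.43 and -0.67 in untreated replicates 1 to 4 and 3.94, 4.05, 4.43 and 4.45 in RA replicates 1 to 4. The untreated samples spread more than the RA samples, with SDs of 0.67 and 0.26, and the groups did not overlap. The means of -0.59 and 4.22 differed by 4.80 (SE 0.32, 95% interval 4.08 to 5.53, adjusted p = 1.16e-05 by limma). The probe (chr2:115689641-115689700 on mm9, minus strand) matches NM_001159569.

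Meis3, the third member of the family, is known in early neural patterning of the hindbrain and had 3 probes. At the brightest the level was -1.74, -1.58, -1.34 and -1.50 in untreated replicates 1 to 4 and 0.80, 0.58, 1.02 and 1.06 in RA replicates 1 to 4. All RA samples were above all untreated samples, with SDs of 0.17 and 0.22. The log2 change was 2.41 (SE 0.16, 95% interval 2.04 to 2.78, adjusted p = 1.28e-05 by limma), and a probe 290 bases away gave 2.44 (SE 0.16). Those probes lie at chr7:16771729-16771788 and chr7:16771439-16771498 of mm9, plus strand.

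Another Meis3 probe lies nearer the start of the transcript, at base 702 of NM_008627 and chr7:16764370-16764429 of mm9. Its sequence is shown because it gave another size of change than the probes 3′ of it.
Meis3, inner probe: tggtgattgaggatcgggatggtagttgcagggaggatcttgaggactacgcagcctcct
Its level was -6.55, -4.62, -4.21 and -4.51 in untreated replicates 1 to 4 and -1.45, -1.72, -1.04 and -1.16 in RA replicates 1 to 4. Untreated replicate 1 was far below the other untreated samples and was the 1 sample in which the probe was not well above background. The log2 change was 3.63 (SE 0.47, adjusted p = 0.000375 by limma), and it passed without untreated replicate 1 too (adjusted p = 5.89e-05 by limma). The change at the brightest probe was smaller by 1.22 (SE 0.46, exact permutation test over samples, two-sided, adjusted p = 0.0571 over 4 pairs of probes), and by 0.76 without that sample. With a normexp background correction the inner and the brightest probe gave 1.99 and 2.17, so the order of the probes turned with that correction. Meis3 rose by all 3 probes under each correction.

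Pknox1, a partner of Pbx that most tissues express, had a narrow range in untreated cells. Its level was 0.78, 0.64, 0.61 and 0.72 in untreated replicates 1 to 4 and 0.22, 0.16, 0.52 and 0.59 in RA replicates 1 to 4. Every RA sample was below every untreated sample, by as little as 0.02 log2 units between the nearest samples. The log2 change was -0.31 (SE 0.15, 95% interval -0.66 to 0.03) and did not pass (adjusted p = 0.136 by limma). The adjusted p by limma was 0.0353 with the authors' values and 0.0351 with normexp and quantile scaling together. With the mean of the probes of Pknox1 it was 0.0361. In these settings only the 1.5-fold limit was missed, with changes of -0.31, -0.32 and -0.45. The main change was within 0.04 of the median change of all probes, -0.28, but with quantile scaling it was -0.31 against a median of -0.0026. The probe (chr17:31744266-31744325 on mm9, plus strand) matches NM_016670.

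A dimmer Pknox1 probe 1388 bases away (chr17:31742878-31742937) read -1.88, -1.26, -1.29 and -1.25 in untreated replicates 1 to 4 and -2.14, -2.16, -1.97 and -1.75 in RA replicates 1 to 4. Untreated replicate 1 lay apart from the others of its group and overlapped the RA samples. The change of -0.59 (SE 0.19, adjusted p = 0.0376 by limma) passed at the limit of 1.50-fold, but it no longer passed when any 1 of 6 samples was left out, nor with the slide as a block (adjusted p = 0.0507 by limma), quantile scaling (-0.52), normexp (-0.54), both together (-0.46) or the authors' values (-0.46). The probes of Pknox1 differed in change by 0.27 (SE 0.19, exact permutation test over samples, two-sided, adjusted p = 0.190 over 4 pairs), which is within the spread between samples.

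Pknox2, the more tissue-restricted relative of Pknox1, changed otherwise. Its level was -1.57, -1.47, -1.04 and -1.62 in untreated replicates 1 to 4 and 1.08, 1.33, 1.07 and 0.96 in RA replicates 1 to 4. The nearest samples of the groups were about 2 log2 units apart. The rise of 2.54 log2 units (SE 0.17, 95% interval 2.14 to 2.93, adjusted p = 1.28e-05 by limma) exceeded the change of Pknox1 by 2.85 (SE 0.24, exact permutation test over samples, two-sided, adjusted p = 0.0355 over 36 pairs of genes). Its unadjusted p of 0.0286 is the smallest that this exact permutation test can give with 4 against 4 samples. The probe (chr9:36698570-36698629 on mm9, minus strand) matches NM_001029838.

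Pbx2, the broadly expressed Pbx gene, was well above background before RA. Its level was 1.86, 2.10, 2.07 and 2.18 in untreated replicates 1 to 4 and 3.55, 3.37, 3.92 and 3.67 in RA replicates 1 to 4. Neither group spread by more than 0.6 log2 units, and the groups did not overlap. The means differed by 1.57 on the log2 scale (SE 0.16, 95% interval 1.20 to 1.94, adjusted p = 9.96e-05 by limma). The probe (chr17:34733355-34733414 on mm9, plus strand) matches NM_017463.

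Pbx3 is known for its part in the control of breathing and in hindbrain neurons. Its level was 0.41, 0.64, -0.60 and 0.30 in untreated replicates 1 to 4 and 1.59, 1.75, 1.44 and 1.74 in RA replicates 1 to 4. Untreated replicate 3 was the low sample, and the RA samples were within 0.4 log2 units of each other. The log2 change was 1.45 (SE 0.26, 95% interval 0.85 to 2.04, adjusted p = 0.00233 by limma), and 1.18 without untreated replicate 3. Pbx2 and Pbx3 differed in change by 0.13 (SE 0.34, exact permutation test over samples, two-sided, adjusted p = 0.686 over 36 pairs). The probe (chr2:34027481-34027540 on mm9, minus strand) matches NM_016768.

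Pbx4, known mainly from the testis, was far below the 75th percentile on every array, though well above background on all 8. Its level was -3.44, -3.09, -3.61 and -3.19 in untreated replicates 1 to 4 and -3.39, -3.67, -3.28 and -3.18 in RA replicates 1 to 4. The samples of both conditions were interleaved. The log2 change was -0.05 (SE 0.18, 95% interval -0.45 to 0.35, adjusted p = 0.844 by limma), so the interval leaves out a change of 1.5-fold in either direction on this scale. The sign turned with quantile scaling (0.16), and it was 0.24 on the first slide and -0.33 on the second. The probe (chr8:72393975-72394034 on mm9, plus strand) matches NM_001024954.

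Tgif1, the repressor of the group and the gene affected in some forms of holoprosencephaly, was the gene that fell by its brightest probe. Its level was 5.90, 5.60, 5.09 and 5.68 in untreated replicates 1 to 4 and 4.80, 4.85, 4.57 and 4.54 in RA replicates 1 to 4. The RA samples lay below every untreated sample, with untreated replicate 3 the nearest to them. The means differed by -0.88 (SE 0.19, 95% interval -1.32 to -0.44, adjusted p = 0.00682 by limma). Relative to the median change of all probes, -0.28, it was -0.60, and quantile scaling, which brought that median to -0.0026, gave -0.64 (adjusted p = 0.00715 by limma). Tgif1 passed neither a limit of 2-fold nor a test against a change of 1.5-fold (adjusted p = 0.313 by limma's treat). The probe (chr17:71193629-71193688 on mm9, minus strand) matches NM_001164075.

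**Figure D2:**
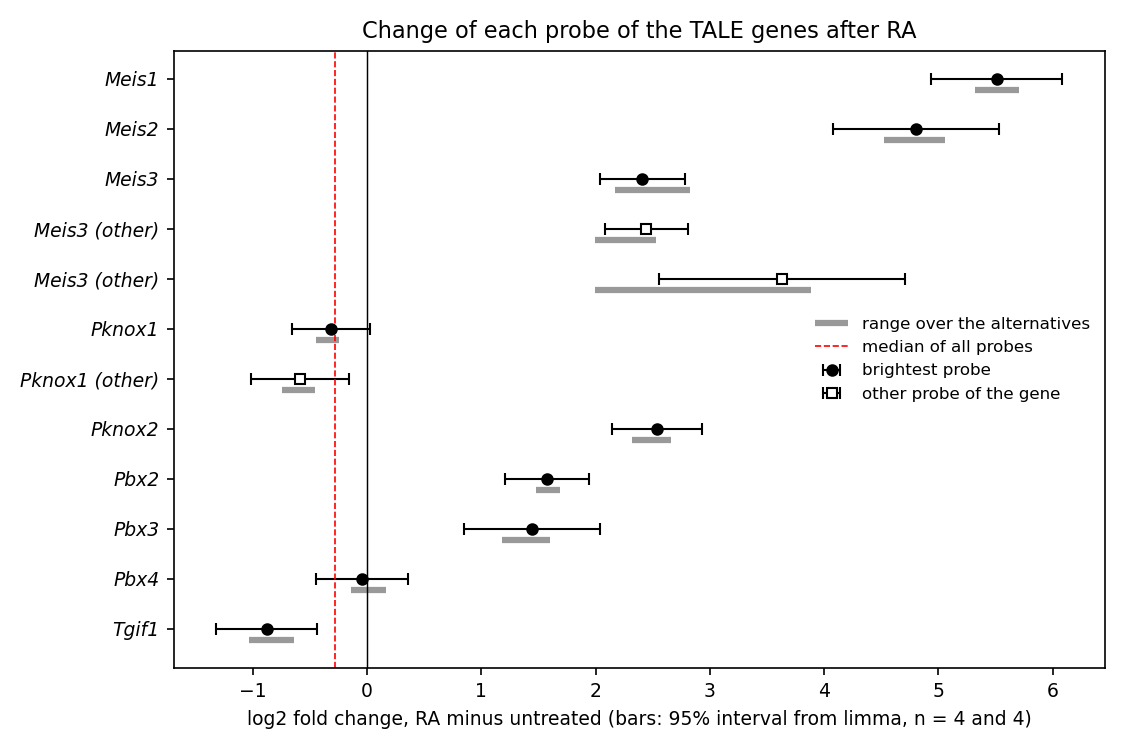
Log2 fold change (RA minus untreated) of each of the 12 probes of the TALE genes, with 95% intervals from limma for the brightest (filled circle) and other (open square) probes. Grey bars are the range over the alternative processing settings and left-out samples, and the dashed line is the median of all probes at -0.28. Meis1 and Meis2 have the largest changes. The inner Meis3 probe has the widest range, and its interval (2.55 to 4.71) overlaps that of Meis2 (4.08 to 5.53).

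The order of the changes was Meis1, Meis2, Pknox2, Meis3, Pbx2, Pbx3, Pbx4, Pknox1 and Tgif1. Of the 36 pairs of genes, 29 differed at the smallest p that an exact permutation test over 4 against 4 samples can give (0.0286, two-sided, 0.0355 adjusted over the 36 pairs). Meis1 rose more than Meis2 by 0.71 (SE 0.25), a difference within the overlap of the samples (adjusted p = 0.0686, exact permutation test). Pknox2 and Meis3 were neighbours that differed by 0.13 (adjusted p = 0.676, exact permutation test). Pknox2 and Meis3 each differed from Pbx3 by 1.09 and 0.96 (adjusted p = 0.0935 for both, exact permutation test). At the lower end, Pbx4 and Pknox1 differed by 0.27 (adjusted p = 0.121), and Pknox1 and Tgif1 by 0.56 (adjusted p = 0.0935, exact permutation test for both). By their brightest probes, both Meis1 and Meis2 rose more than each of the 7 other genes at the smallest p the test allows. Within replicate numbers, 4 of the 7 pairs that did not pass kept 1 direction in all 4 numbers. Meis1 exceeded Meis2 by 0.18 to 1.44, Pknox2 exceeded Pbx3 by 0.06 to 1.69, Meis3 exceeded Pbx3 by 0.32 to 1.36, and Pknox1 exceeded Tgif1 by 0.27 to 1.02. Each gave p = 0.125 in an exact sign-flip permutation test (two-sided, unadjusted), the smallest that 4 pairs of samples allow, so the paired test cannot pass in this design.

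The RA samples were all above the untreated samples in 6 genes and all below in 2, Pknox1 and Tgif1. Of all gene names, 15.3% were separated upward and 25.3% downward, and of those well above background on all arrays, 21% and 34%. Each slide carried 2 samples of each condition, and the 6 genes that rose did so within both slides. Meis1 changed by 5.72 on the first slide and 5.30 on the second, Meis2 by 4.82 and 4.79, and Meis3 by 2.48 and 2.34. Pknox2 changed by 2.33 and 2.74, Pbx2 by 1.64 and 1.50, and Pbx3 by 1.76 and 1.13. Tgif1 was lower by a similar amount on both slides, with changes of -0.82 and -0.93. Pknox1 gave -0.29 and -0.34.

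Within a condition the genes did not move as 1 block. Untreated replicate 3 was the lowest untreated sample for Meis1, Meis2, Pbx3, Pbx4, Pknox1 and Tgif1, 6 of the 9 genes, and the highest for Meis3 and Pknox2. Among all gene names well above background, 38.3% were lowest and 20.0% highest on that array, and its summed level of pluripotent markers, 511.6, was below the 658 to 709 of the other untreated samples. RA replicate 2 was the lowest RA sample for Meis1, Meis3, Pbx2, Pbx4 and Pknox1 and the highest for Pbx3, Pknox2 and Tgif1. The pluripotent markers summed to 125.9 there, against 46.9 to 73.5 in the other RA samples, and 22.3% of gene names were lowest and 32.2% highest on that array. Without untreated replicate 3, and without RA replicate 2, the 6 genes still rose and Tgif1 still fell. Meis2 changed by 4.52 and Tgif1 by -1.04 without the former, and Meis1 by 5.71 without the latter. The part of marker levels in these differences was not tested.

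**Figure D3:**
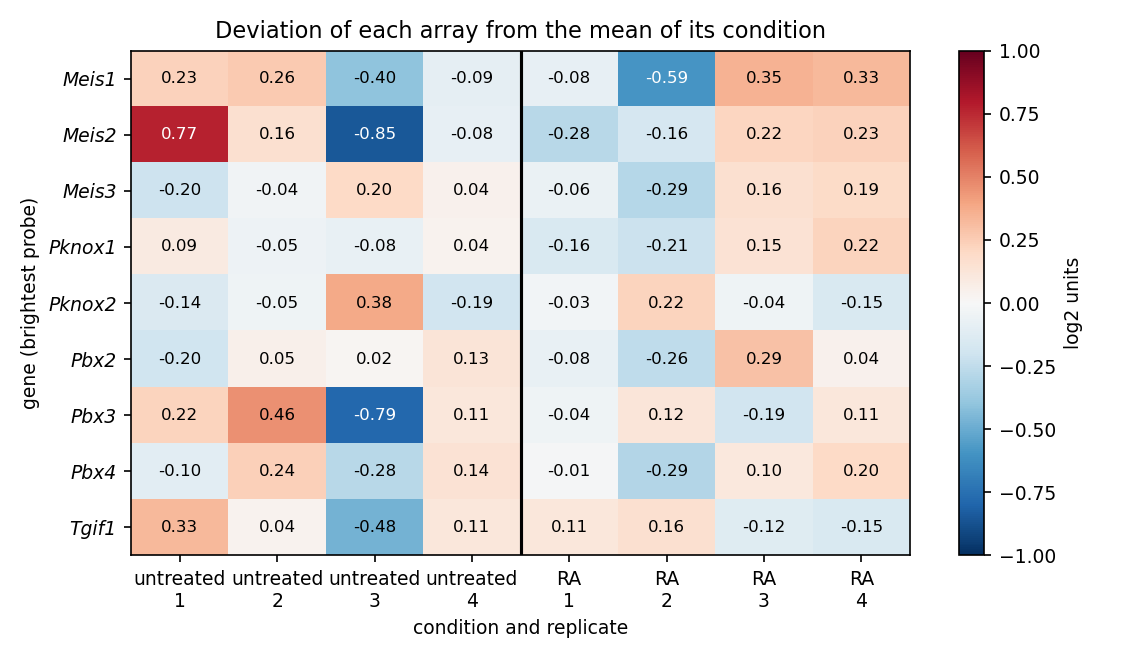
Deviation of each sample from the mean of its condition, in log2 units, for the brightest probe of the 9 TALE genes (rows) on the 8 arrays (columns, untreated on the left and RA on the right of the black line). Untreated replicate 3 holds the largest negative deviations, -0.85 for Meis2 and -0.79 for Pbx3, while Meis3 and Pknox2 were above their mean there.

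The genes most like Meis1 over the 8 samples, by the smallest root mean square difference of centred log2 values among 16459 probes well above background, were Cmtm8 (0.223), Irx3 (0.229) and Foxd2 (0.268). Irx3 is itself a TALE gene of the Iroquois family, and its log2 change was 5.28. Foxd2, a forkhead factor, changed by 5.20 and Cmtm8 by 5.70. Those most like Tgif1 were Atox1 (0.0679), a copper chaperone, Naa30 (0.0727), a subunit of an N-terminal acetyltransferase, and Pdss1 (0.0778), an enzyme of ubiquinone synthesis. Their log2 changes were -0.86, -0.85 and -0.86.

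The other genes of the class were read beside the 9. Of the 8 other TALE genes, 5 rose, 2 fell and 1 did not pass, with a median log2 change of 1.23. Irx3 rose most, and Irx5, also of the Iroquois family, rose at least 7.27-fold from a level not well above background on any untreated array. This bound sets the RA mean against the lowest signal well above background on the untreated arrays. Mkx, a regulator of tendon, and Tgif2, the closest relative of Tgif1, fell, with log2 changes of -1.24 and -0.61 (adjusted p = 0.00143 and 0.0394 by limma). Tgif2 was no longer past the threshold with a normexp correction, with the replicate number as a block or with any 1 of 5 samples left out.

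The Hox genes that bind with Pbx rose together. All 15 of paralogue groups 1 to 5 rose, with a median log2 change of 6.28, or 4.74 with the 8 genes that were not well above background on any untreated array at their bounds. Hoxb2, of the hindbrain, changed by 7.63 and Hoxa5 rose at least 30.8-fold. Hoxa5 was named by its fitted change, and its bound lies below the measured 124-fold of Hoxa3.

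Partners of Tgif1 went both ways. Of 11 genes for Smad proteins, corepressors, deacetylases and a retinoid X receptor, 4 rose and 5 fell, with a median of -0.05. Smad3 and Smad2, the TGF-β effectors that Tgif1 binds, rose by 2.67 and 1.24 on the log2 scale, and the corepressor gene Ctbp2 and the receptor gene Rxra fell, with log2 changes of -1.91 and -1.30. Of a list of 10 genes, called hindbrain genes here though it also holds Pbxip1, 4 rose and 2 fell, with a median of 0.57. Epha7 rose by 3.08 on the log2 scale, while Epha2 and Egr2, the Krox20 gene of hindbrain segments, fell, with log2 changes of -2.72 and -1.33. Pbxip1, whose product binds Pbx and hinders its work with Hox, gave 0.41 and did not pass (adjusted p = 0.0803 by limma).

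**Figure D4:**
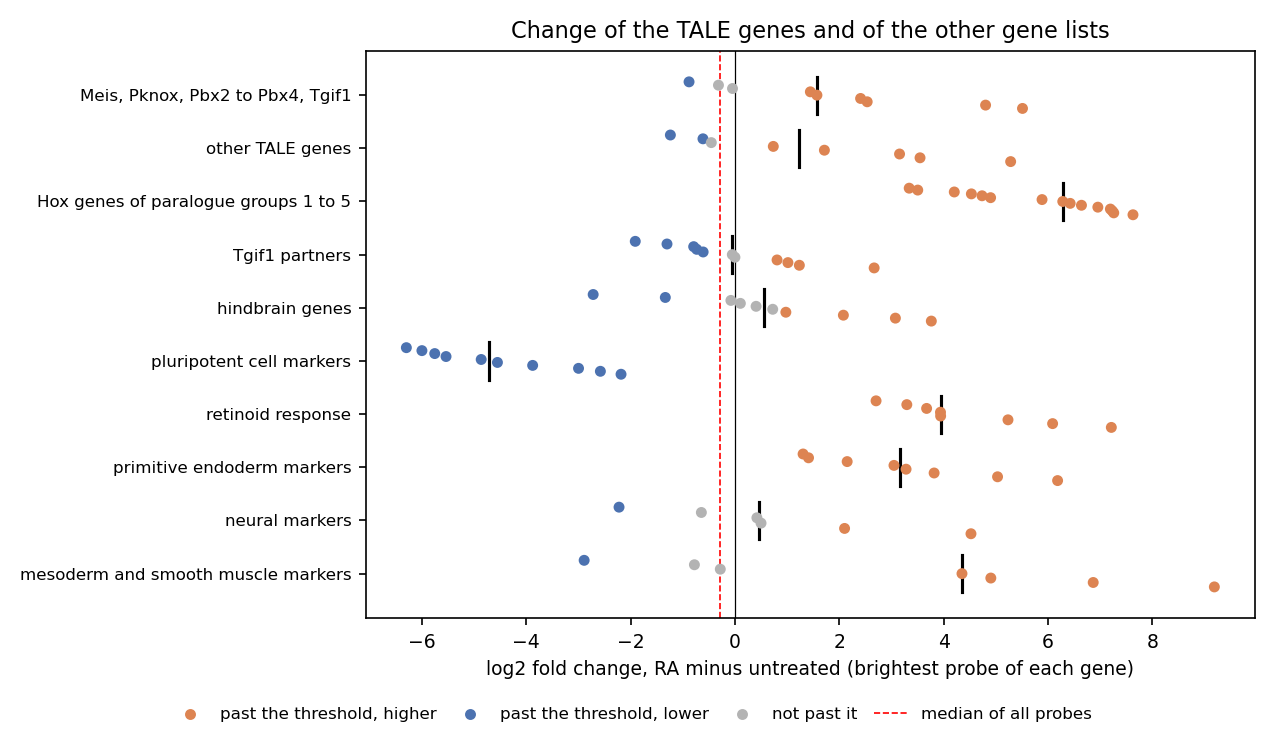
Log2 fold change (RA minus untreated) of the 9 TALE genes and of each list of other genes, 1 point per gene by its brightest probe, with the list's median as a black bar and the median of all probes as a dashed line. Orange and blue points passed the threshold and grey points did not. Points of genes not well above background on untreated arrays are fitted values and not bounds. The TALE genes spread from -0.88 to 5.51, the Hox genes are all above 3.3 and the pluripotent markers are all below -2.1.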

How the data were processed

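Total RNA of 8 samples was labelled with Cy3 and hybridised to 1-colour Agilent arrays. The deposited scanner files hold the intensity of each spot (Agilent Feature Extraction 10.7.3.1, mm9 coordinates), background-subtracted per the file headers. The authors also deposited log2 values, the same distribution on every array (sorted values within 0.01), with their normalization not given in the sources used here; these served as an alternative.

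From the intensity values, log2 processed signal minus the 75th percentile of each array was computed over 59305 non-control spots, outlier-flagged spots (124 to 145 per array, none of a TALE gene) were left out, and spots of a probe were averaged. Between 56.7% and 62.7% of spots were well above background and 0 were saturated; the number of arrays limits the precision. Conditions were compared with limma 3.58.1 in R 4.3.3 (lmFit, eBayes, Benjamini-Hochberg over 55681 probes, all 8 arrays, no covariate), at an adjusted p under 0.05 and over 1.5-fold, the limits the study states. By limma, 7196 probes were higher and 12044 lower, and 8152 and 8704 with quantile scaling. In simulated data, 140 of 200 probes changed by 2 log2 units were recovered with 7 false calls.

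Differences between genes or probes were tested by exact permutation over samples. Alternatives were quantile scaling, normexp (offset 50), both, the authors' values, replicate number or slide as a block, a filter on dim probes, a test against 1.5-fold, a 2-fold limit, the mean of a gene's probes and each array left out. For numbers 1, 2 and 4, same-numbered samples deviated together a little more (r = 0.186, 0.189 and 0.151 over 27493 probes) than any of different numbers (at most 0.142). Number 3, with r = 0.104, did not. The labels state no pairing, so whether the numbers pair the samples is not settled.

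Named were all members with all probes, the largest 2 rises and 2 falls past the threshold among the other TALE, Hox, Tgif1 partner and hindbrain genes (marker lists are given by counts and sums), and the 3 genes most like the members with the largest rise and fall; 1 gene under this rule is not reported here. The markers of mesoderm and smooth muscle and the neural markers were named after their values were seen. Members and lists were chosen with earlier results of these data known.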

Additional observations from a re-analysis of the deposited data

Results flagged for a closer look

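The dimmer Pknox1 probe was at -1.88 log2 units on untreated replicate 1, against -1.29 to -1.25 on the other untreated samples. This was the only value that lay outside its group by Dixon's test, of 24 groups of 4 samples tested over the 12 probes, and chance alone marks about 1 group in 20. Without that sample the change of this probe was -0.74, against -0.59 with it.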

How the results depend on the processing

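The 6 genes that rose did so under every alternative run, and both Pknox1 (brightest probe) and Pbx4 were counted as neither higher nor lower under each. Under quantile scaling, normexp, both together and the authors' values, the change of the 6 genes differed from the main value by less than 0.3 log2 units. The count of TALE genes that fell went from 1 to 0 with the test against 1.5-fold and with the 2-fold limit, by their construction. Pbx4 turned from -0.05 to 0.16 with quantile scaling, 0.0921 with normexp and quantile scaling and 0.0925 with the authors' values; with each array left out it ranged from -0.14 to 0.052, positive without untreated replicate 2 (0.03), untreated replicate 4 (0.0017) and RA replicate 2 (0.052). Of the other TALE genes, 2 were lower, and 1 was with normexp, normexp and quantile scaling, the authors' values, the replicate block, the test against 1.5-fold, the 2-fold limit and the mean of all probes, with a range of 1 to 2 over left-out arrays. Of the Tgif1 partners, 5 were lower, 2 with the test against 1.5-fold, 2 with the 2-fold limit and 3 with the mean of all probes. Of the hindbrain genes, 2 were lower and 1 was with the test against 1.5-fold. The causes were not tested. With the replicate number as a block, the TALE genes gave 6 higher and 1 lower as before, and the counts of the other TALE, Hox, Tgif1 partner and hindbrain lists stayed within 1.5 times but for the loss of Tgif2; calls of the marker lists were not run with the block. The largest adjusted p of a rising gene over all alternatives was 0.0306 (Pbx3, test against 1.5-fold). Leaving out each untreated array in the comparison of Meis3 probes, and the comparison of genes within replicate numbers, were chosen after seeing the data.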
